A study of Mus musculus with 4 samples.

Results

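The immunoglobulin genes are the genes of antibodies, and the ones examined here were taken by name from the mouse GRCm38 annotation. They were every gene whose symbol begins with Ighv, Igkv or Iglv, the heavy chain constant genes Ighm, Ighd, Ighg1, Ighg2b, Ighg2c, Ighg3, Igha and Ighe, the light chain constant genes Igkc, Iglc1, Iglc2 and Iglc3, and the J chain gene Jchain. No measured value entered the choice. This gave 361 of the 47729 genes listed in the files, namely 185 Ighv, 160 Igkv, 3 Iglv, 8 heavy constant and 4 light constant genes and Jchain. Of them 193 lie on chromosome 12, 161 on chromosome 6, 6 on chromosome 16 and 1 on chromosome 5. The V entries comprise 218 genes and 130 pseudogenes.

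Whole-lung polyA RNA was sequenced in 4 libraries of pooled mice of strain BL/6 and genotype Control (Rosa), which both groups carry. The Sugen-Hypoxic group held 2 pools of 2 males each, exposed to hypoxia and given Sugen, which blocks VEGF receptors, a pairing used in rodents as a model of pulmonary hypertension. The Normoxic group held 1 pool of 3 females (Normoxic 1) and 1 pool of 1 female and 2 males (Normoxic 2). The labels used here state no age, dose or duration. The arm with KCNK3 mutations was not analysed here, and no group received Sugen or hypoxia alone. Treatment and the sex of the pools cannot be told apart. The replicates are pools of different mice, and p-values measure only the spread between these 4 pools.

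Gene counts summed to 57.3 and 65.3 M (1000000 reads) in Sugen-Hypoxic 1 and 2 and to 67.1 and 58.2 M in Normoxic 1 and 2. Levels are given as CPM, the counts of a gene per 1000000 gene counts of a library, at which 3 reads amount to 0.0447 to 0.0523 CPM. The source label is lung although the extraction text names kidneys. The 5 lung epithelium markers were abundant in every library, with the surfactant gene Sftpc at 11239 to 12003 CPM, while the 5 kidney markers summed to 0.0349 and 0.214 CPM in the Sugen-Hypoxic pools and 0.283 and 0.378 CPM in the Normoxic pools. None of the 5 lung markers passed the test, nor did the 1 kidney marker that could be tested. Red cell markers summed to 849 and 350 CPM in Sugen-Hypoxic 1 and 2 and to 374 and 410 CPM in Normoxic 1 and 2, so Sugen-Hypoxic 1 stood above the other libraries, and 0 of the 5 passed.

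An antibody consists of heavy chains from the Igh locus and light chains from the kappa (Igk) or lambda (Igl) locus. In each developing B cell, recombination joins 1 of many V segments to short D or J segments, so that a B cell and its descendants carry their own V gene on transcripts that also hold a constant gene. The constant gene sets the class. Ighm gives IgM and Ighd gives IgD, which mature naive B cells carry on their surface side by side with IgM, while the Ighg genes and Igha are used after class switching. Plasma cells secrete antibody and make far more of these transcripts than resting B cells do. The V genes that led the reads of a locus in a library were therefore identified, and their 3′ ends are shown next, because it is this end that is joined to the rest of the chain.

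The sequences are the last 60 bases of the V segment in the GENCODE mouse release 21 transcripts of GRCm38, written 5′ to 3′ on the strand of the gene. Capitals mark the codons of a tyrosine, a tyrosine, phenylalanine or isoleucine, and the conserved second cysteine of the V domain, after which the variable joint begins. Ighv11-2 and Igkv14-126 come first in their loci as the leaders of Sugen-Hypoxic 2, and the lambda locus is shown in full.
Ighv11-2: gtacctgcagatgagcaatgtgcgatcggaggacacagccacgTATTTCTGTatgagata
Ighv6-3: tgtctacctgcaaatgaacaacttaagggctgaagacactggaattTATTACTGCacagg
Ighv1-53: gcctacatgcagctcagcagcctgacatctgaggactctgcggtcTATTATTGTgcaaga
Ighv5-6: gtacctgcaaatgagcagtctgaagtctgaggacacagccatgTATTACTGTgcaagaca
Igkv14-126: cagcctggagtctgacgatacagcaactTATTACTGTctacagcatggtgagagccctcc
Igkv19-93: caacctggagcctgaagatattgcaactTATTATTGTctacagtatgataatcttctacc
Igkv3-2: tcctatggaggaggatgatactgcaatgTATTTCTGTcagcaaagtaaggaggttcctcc
Igkv1-110: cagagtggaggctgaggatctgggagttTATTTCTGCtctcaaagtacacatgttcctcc
Iglv1: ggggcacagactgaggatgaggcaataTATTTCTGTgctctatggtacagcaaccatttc
Iglv2: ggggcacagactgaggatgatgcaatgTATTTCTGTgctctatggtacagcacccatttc
Iglv3: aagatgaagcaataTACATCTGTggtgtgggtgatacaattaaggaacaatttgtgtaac

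On GRCm38 the printed heavy chain ends lie at chr12:114048241-114048300 for Ighv11-2, chr12:114391712-114391771 for Ighv6-3, chr12:115158403-115158462 for Ighv1-53 and chr12:113625506-113625565 for Ighv5-6, all on the minus strand. The kappa ends lie at chr6:67896583-67896642 for Igkv14-126, chr6:70699008-70699067 for Igkv3-2 and chr6:68271208-68271267 for Igkv1-110 on the plus strand, and at chr6:68736297-68736356 for Igkv19-93 on the minus strand. The lambda ends lie at chr16:19085017-19085076 for Iglv1, chr16:19260401-19260460 for Iglv2 and chr16:19241207-19241266 for Iglv3 on the minus strand. All lie in the V exon of the gene that they end. In the heavy chain segments 5 to 8 bases follow the cysteine codon, against 23 in the kappa segments. Iglv1 and Iglv2 were 97.1% identical, with 10 mismatches over 348 aligned transcript bases, while Iglv1 and Iglv3 were 60.8% identical.

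How far reads can be placed on 1 V gene differs among the segments. A window of 50 bases that also occurs in another gene was counted as shared. Of the 361 genes, 40 had at least 50% of their windows shared and 91 had none. The share was 0% for Igkv14-126, Igkv19-93 and Iglv3, 38.6% for Ighv11-2 and 57.6% for Ighv1-53. Reads that map to several places were not counted per gene, so the level of a gene with shared windows is uncertain and may be too low. The members are also not independent, since each V transcript continues into a constant gene.

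Reads were found for 239 of the 361 genes, 24 of them pseudogenes, and 122 had 0 reads in all 4 libraries. The expression filter kept 162, of which 97 reached its cutoff in both libraries of each group and 11 in 1 library of each group. A further 52 reached it in both Normoxic libraries but not in both Sugen-Hypoxic libraries, and 2 the other way round. Genes of these last kinds may have reached the cutoff in 1 library of the other group. Of the 199 genes not tested, 77 had a read. Reads on V pseudogenes made up 0.128 and 0.106% of V reads in Sugen-Hypoxic 1 and 2 and 0.270 and 0.342% in Normoxic 1 and 2.

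The first result concerns the total. The 361 genes together held 382 and 2178 CPM in Sugen-Hypoxic 1 and 2, against 1589 and 1123 CPM in Normoxic 1 and 2. One treated pool was thus the lowest of the 4 libraries and the other the highest, so the groups overlapped. Sugen-Hypoxic 1 lay 3.55-fold below the Normoxic mean and Sugen-Hypoxic 2 lay 1.61-fold above it. The group means were 1280 ± 1270 CPM in the Sugen-Hypoxic libraries and 1356 ± 330 CPM in the Normoxic libraries (SD, n = 2 each), a log2 ratio of -0.08, which was -1.83 without Sugen-Hypoxic 2 and 0.68 without Sugen-Hypoxic 1. With 2 libraries against 2, an exact permutation test cannot give a p below 0.3333, so no test of the sum was made.

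The same order of libraries recurred in the sums of the gene classes other than the lambda V genes. Heavy constant genes summed to 204 and 1098 CPM in Sugen-Hypoxic 1 and 2, against 842 and 569 CPM in Normoxic 1 and 2. Light constant genes summed to 84.5 and 466 CPM in the Sugen-Hypoxic pools, against 354 and 264 CPM in the Normoxic pools. Kappa V genes summed to 41.8 and 277 CPM in the Sugen-Hypoxic pools, against 217 and 167 CPM in the Normoxic pools. In these 3 sums Sugen-Hypoxic 1 was the lowest library and Sugen-Hypoxic 2 the highest. Heavy chain V genes summed to 30.4 and 194 CPM in the Sugen-Hypoxic pools, against 119 and 85.2 CPM in the Normoxic pools, with the same order. Lambda V genes differed in that Sugen-Hypoxic 1 was not low, with 9.26 and 47.6 CPM in the Sugen-Hypoxic pools and 11.6 and 8.98 CPM in the Normoxic pools.

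Per gene, Sugen-Hypoxic 1 was below and Sugen-Hypoxic 2 above both Normoxic libraries in 70 of the 162 tested genes, or 43.2%, against 7.61% of all 18783 genes tested. Both treated pools were below both Normoxic pools in 30 (18.5%, against 40.0% of all genes) and above both in 6 (3.70%, against 21.3%). The opposite split, with Sugen-Hypoxic 2 below and Sugen-Hypoxic 1 above, held for 1 gene (against 4.59% of all genes). Sugen-Hypoxic 2 exceeded Sugen-Hypoxic 1 in 154 of the 162 genes. The median fold between the Sugen-Hypoxic pools was 6.67 for these genes and 1.12 over all genes, and between the Normoxic pools it was 1.83 and 1.08. The spread within a group was thus wider for immunoglobulin genes than for most genes in both groups, and widest between the treated pools.

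**Figure D1:**
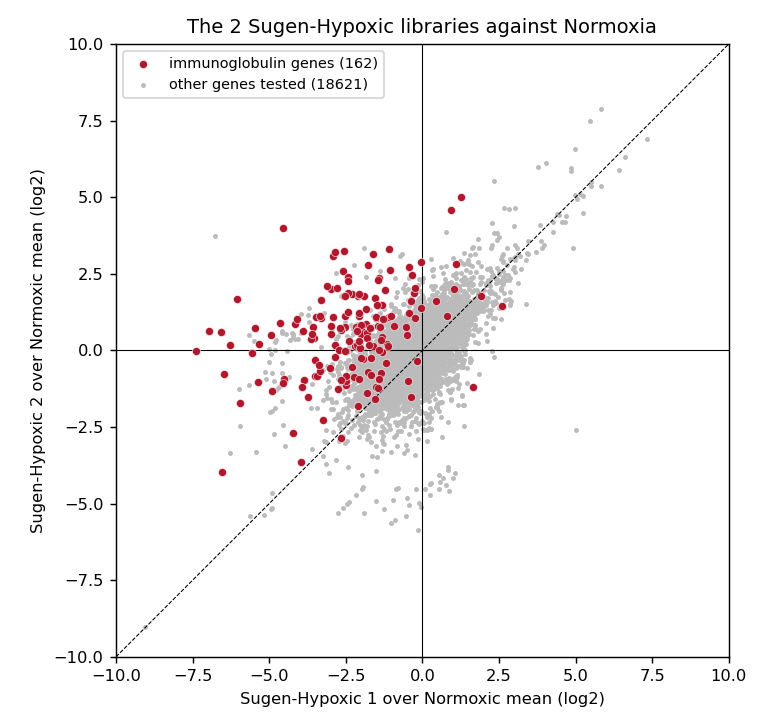
Each point is a tested gene, placed by its log2 level in Sugen-Hypoxic 1 (horizontal) and in Sugen-Hypoxic 2 (vertical) over the mean of the Normoxic libraries, with the 162 immunoglobulin genes in red, all other tested genes in grey and equal change on the dashed line. Most genes lie near the dashed line, while 154 of the 162 immunoglobulin genes lie above it.

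In edgeR's quasi-likelihood test with Benjamini-Hochberg adjustment, 1 of the 162 immunoglobulin genes was higher and 6 were lower in the Sugen-Hypoxic group, 4.32% in all. The filter's cutoff was reached in both libraries of the Normoxic group alone by 52 of the 162, and of the Sugen-Hypoxic group alone by 2. The balance of the calls is therefore a description. Of all 18783 genes tested 11.5% were called, 5.51% as higher and 6.01% as lower. Without adjustment 24 of the 162 had p under 0.05. The median log2 fold change of the 162 was -0.29, beside -0.0039 over all genes. The 7 genes called were the constant genes Ighd and Igha and the V genes Ighv1-5, Igkv4-70, Igkv6-17 and Igkv6-23, all lower, and Iglv3, which was higher. With the male fraction of each pool as a covariate, 0 of the 162 were called in either direction, and 11 genes in all. DESeq2 called 3 as higher and 13 as lower (8.79% and 8.53% of all genes), and with no filter 11 of 239 were higher and 25 lower (6.52% and 6.91% of all genes).

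The count turned on which treated pool was used. Without Sugen-Hypoxic 2, 107 of 170 tested immunoglobulin genes were lower and 4 higher, against 12.5% lower and 11.9% higher among all genes. Without Sugen-Hypoxic 1, 56 of 177 were higher and 14 lower, against 13.4% higher and 12.3% lower among all genes. Each of these fits has 1 treated library, which is assumed to vary as the Normoxic pair does. Without Normoxic 1, 0 of 171 were higher and 1 was lower (0.0872% and 0.0410% of all genes), and without Normoxic 2, 0 were higher and 3 lower (0.281% and 0.296% of all genes). Ighd was among them in both fits, and Igkv4-70 and Igkv14-130 in the fit without Normoxic 2. Igkv14-130, not tested with all libraries, had 2 and 4 reads in the Sugen-Hypoxic pools and 229 and 2 in the Normoxic pools. It was thus high in Normoxic 1 only, and the left-out Normoxic 2 was as low as the treated pools.

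Among the heavy chain constant genes Ighd stood apart from the others, since its 2 treated pools were alike. Ighd (ENSMUSG00000104213, chromosome 12, 113406604 to 113416324, minus strand), the gene of IgD, was at 22.6 and 22.1 CPM in Sugen-Hypoxic 1 and 2, against 68.4 and 71.1 CPM in Normoxic 1 and 2. Both treated pools lay below both Normoxic pools, and the replicates of each group differed little. The means were 22.3 ± 0.337 CPM in the Sugen-Hypoxic libraries and 69.7 ± 1.88 CPM in the Normoxic libraries (SD, n = 2 each), and Ighd fell by -1.57 ± 0.06 on the log2 scale (SE, adjusted p = 0.00113 in edgeR's quasi-likelihood test). The change was -1.61 with the male fraction as a covariate, where the call was lost (adjusted p = 0.0870), and the call held in each fit with 1 library left out. In bulk RNA, fewer cells of a type and less RNA per cell cannot be told apart.

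Ighm (ENSMUSG00000076617, chromosome 12, 113418558 to 113422730, minus strand), the gene of IgM and the neighbour of Ighd, behaved differently. It was at 163 and 995 CPM in Sugen-Hypoxic 1 and 2, against 676 and 363 CPM in Normoxic 1 and 2. Sugen-Hypoxic 1 was the lowest and Sugen-Hypoxic 2 the highest library, so the groups overlapped. The log2 fold change was 0.21 ± 0.78 (adjusted p = 0.884) in edgeR's test, with -1.59 (adjusted p = 3.42e-05) without Sugen-Hypoxic 2 and 0.99 (adjusted p = 0.00185) without Sugen-Hypoxic 1. Its direction turned to -0.24 with limma-voom. Per kilobase of exon, the level of Ighm was 7.27 and 45.3 times that of Ighd in Sugen-Hypoxic 1 and 2, against 9.96 and 5.15 times in Normoxic 1 and 2, so Sugen-Hypoxic 2 held by far the most IgM relative to IgD transcript.

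Igha (ENSMUSG00000095079, chromosome 12, 113254830 to 113260236, minus strand), the gene of IgA, the main antibody class of mucosal secretions, was at 16.0 and 25.4 CPM in the Sugen-Hypoxic pools, against 40.0 and 47.8 CPM in the Normoxic pools. The treated pools were both below the Normoxic pools. Igha fell by a log2 fold change of -1.01 ± 0.21 (SE; means 20.7 ± 6.65 CPM in the Sugen-Hypoxic libraries and 43.9 ± 5.46 CPM in the Normoxic libraries, n = 2 each; adjusted p = 0.0383 in edgeR's test). The call was lost without Normoxic 1 (adjusted p = 0.165), without Normoxic 2 (0.219) and with the male fraction as a covariate (0.470), while the log2 fold change ran from -1.37 to -0.73 over fits with 1 library left out.

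The 4 genes of IgG, the class that dominates serum antibody after an immune response, each had their lowest level in Sugen-Hypoxic 1, and none was called. Together they held 2.15 and 56.0 CPM in Sugen-Hypoxic 1 and 2, against 57.6 and 87.0 CPM in Normoxic 1 and 2. The first treated pool was 33.7-fold below the Normoxic mean, and the second was close to Normoxic 1. Per kilobase of exon Ighg2c led the IgG genes in all 4 pools. In CPM, which favours longer transcripts, Ighg2b was above Ighg2c in both Sugen-Hypoxic pools. The lead of Ighg2c in these pools thus rests on the annotated lengths, with a transcript of 1214 bases against 2566 for Ighg2b.

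Ighg2c was at 0.785 and 16.2 CPM in the Sugen-Hypoxic pools, against 21.0 and 57.0 CPM in the Normoxic pools, a log2 fold change of -2.13 ± 1.11 with adjusted p = 0.264 in edgeR's test. Ighg2b was at 0.925 and 31.0 CPM in the Sugen-Hypoxic pools, against 13.3 and 23.8 CPM in the Normoxic pools (-0.15 ± 1.20, adjusted p = 0.947). Ighg2b and Ighg2c were 87.8% identical over their aligned transcripts, and 5.49% and 4.15% of their windows were shared. Ighg3 was at 0.174 and 8.31 CPM in the Sugen-Hypoxic pools, against 17.0 and 4.96 CPM in the Normoxic pools (-1.31 ± 1.29, adjusted p = 0.543). Its direction turned to 0.74 with the male fraction as a covariate.

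Ighg1 was at 0.262 and 0.536 CPM in the Sugen-Hypoxic pools, against 6.30 and 1.17 CPM in the Normoxic pools. Both treated pools were below both Normoxic pools, which themselves lay far apart. The log2 fold change was -3.15 ± 0.87 (adjusted p = 0.0738) in edgeR's test, and it was -1.46 without Normoxic 1. Ighe, the gene of IgE, had 2 and 0 reads in the Sugen-Hypoxic pools and 2 and 0 reads in the Normoxic pools. It was not tested, and no difference was detectable at this depth.

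**Figure D2:**
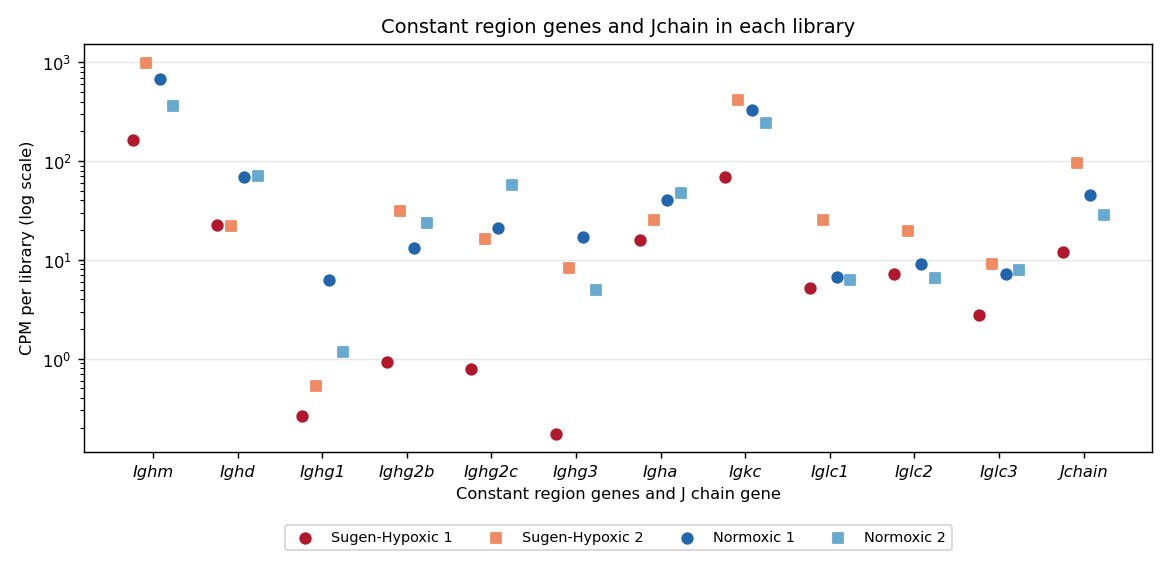
CPM of each constant gene except Ighe and of Jchain (horizontal axis) in each of the 4 libraries on a log scale. Each point is 1 pooled library. For Ighd the treated pools sit together at 22.6 and 22.1 CPM below both Normoxic pools, while for Ighm, Igkc and Jchain the treated pools lie on either side of the Normoxic pools.

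Shares of the classes, taken per kilobase of exon, show how the makeup of each pool differed. Ighm held 82.0 and 91.6% of the heavy constant level in Sugen-Hypoxic 1 and 2, against 81.6 and 63.7% in Normoxic 1 and 2. Ighd held 11.3 and 2.02% in the Sugen-Hypoxic pools, against 8.19 and 12.4% in the Normoxic pools. In Sugen-Hypoxic 2 the share of IgD transcript was thus the smallest of the 4. The IgG genes together held 1.05 and 4.74% in the Sugen-Hypoxic pools, against 6.83 and 18.0% in the Normoxic pools. Ighg2c alone made up 14.2% in Normoxic 2, a share that depends on its short annotated length. Igha held 5.70 and 1.65% in the Sugen-Hypoxic pools, against 3.41 and 5.92% in the Normoxic pools. Both treated pools were below both Normoxic pools in the IgG share, and the groups overlapped in the share of Igha.

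**Figure D3:**
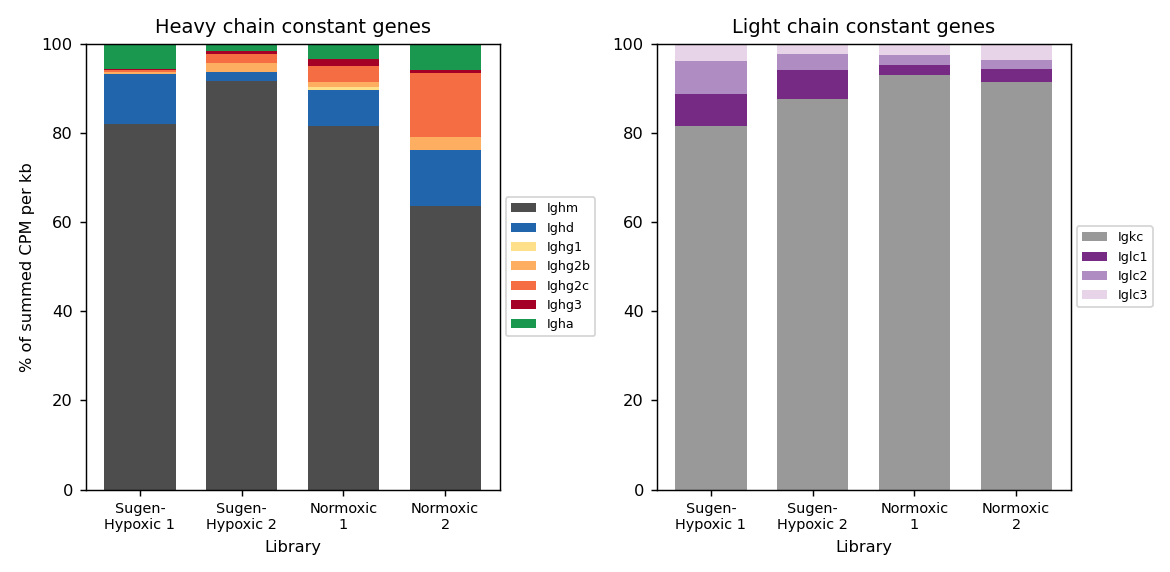
Stacked bars give the share of each gene in the summed CPM per kilobase of exon of its chain, 1 bar per pooled library. Heavy chain constant genes are on the left, with Ighe not drawn, and light chain constant genes on the right. Ighm fills 63.7 to 91.6% of the heavy chain bars, the IgG part is 1.05 and 4.74% in the Sugen-Hypoxic pools and 6.83 and 18.0% in the Normoxic pools, and the lambda genes take 18.3 and 12.3% of the light chain bars in the Sugen-Hypoxic pools and 6.85 and 8.43% in the Normoxic pools.

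Among the light chain constant genes none was called. Igkc (ENSMUSG00000076609, chromosome 6, 70726435 to 70726966, plus strand), the only kappa constant gene, was at 69.4 and 412 CPM in Sugen-Hypoxic 1 and 2, against 331 and 244 CPM in Normoxic 1 and 2. It had the same order of libraries as Ighm, with a log2 fold change of -0.20 ± 0.73 and adjusted p = 0.884 in edgeR's test, which was 0.28 with the male fraction as a covariate, -1.97 (adjusted p = 5.01e-09) without Sugen-Hypoxic 2 and 0.57 (adjusted p = 0.00156) without Sugen-Hypoxic 1.

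The lambda constant genes were higher in Sugen-Hypoxic 2 than in the other libraries. Iglc1 was at 5.20 and 25.5 CPM in the Sugen-Hypoxic pools, against 6.67 and 6.30 CPM in the Normoxic pools (1.30 ± 0.66, adjusted p = 0.252 in edgeR's test). Iglc2 was at 7.14 and 19.8 CPM in the Sugen-Hypoxic pools, against 9.19 and 6.61 CPM in the Normoxic pools (0.83 ± 0.46, adjusted p = 0.287). Iglc3 was at 2.77 and 9.14 CPM in the Sugen-Hypoxic pools, against 7.27 and 7.88 CPM in the Normoxic pools (-0.28 ± 0.50, adjusted p = 0.751). Sugen-Hypoxic 1 was lowest in Iglc1 and Iglc3, though for Iglc1 the distance to the Normoxic pools was small. Iglc2 and Iglc3 were 95.4% identical, with 21 mismatches over 452 bases, so reads between them are uncertain. Of the light constant level per kilobase, the lambda genes held 18.3 and 12.3% in the Sugen-Hypoxic pools and 6.85 and 8.43% in the Normoxic pools, where the groups did not overlap.

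Jchain (ENSMUSG00000067149, chromosome 5, 88519809 to 88527891, minus strand) codes for the chain that joins IgM and IgA into polymers in secreting cells. It was at 12.1 and 95.7 CPM in Sugen-Hypoxic 1 and 2, against 45.4 and 28.5 CPM in Normoxic 1 and 2. The treated pools again lay on either side of the Normoxic pools. The log2 fold change was 0.60 ± 0.84 (adjusted p = 0.675) in edgeR's test, with -1.52 (adjusted p = 1.05e-05) without Sugen-Hypoxic 2 and 1.43 (adjusted p = 5.53e-06) without Sugen-Hypoxic 1. Per kilobase, Jchain was 0.406 and 3.27 times Ighd in the Sugen-Hypoxic pools, against 0.501 and 0.302 times in the Normoxic pools.

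V levels were set against those of the constant genes. Per kilobase, the Igkv sum was 0.868 and 0.966 times the level of Igkc in Sugen-Hypoxic 1 and 2, against 0.938 and 0.979 times in Normoxic 1 and 2. The Ighv sum was 0.769 and 0.899 times the heavy constant sum in the Sugen-Hypoxic pools, against 0.733 and 0.773 times in the Normoxic pools. These 2 ratios varied far less between libraries than the sums themselves, whose treated pools differed 6.37-fold for Ighv and 6.62-fold for Igkv. The Iglv sum varied more, at 0.823 and 1.14 times the Iglc sum in the Sugen-Hypoxic pools and 0.669 and 0.556 times in the Normoxic pools.

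Which V genes carried the reads differed from pool to pool. Heavy chain V reads numbered 1744 and 12672 in Sugen-Hypoxic 1 and 2 and 7996 and 4960 in Normoxic 1 and 2. Of the 185 Ighv entries, 80 and 98 had a read in the Sugen-Hypoxic pools and 98 and 99 in the Normoxic pools. The effective number of V genes, the number of equally used genes with the same Shannon diversity, was 31.8 and 42.5 in the Sugen-Hypoxic pools and 44.8 and 49.7 in the Normoxic pools. It was lowest in Sugen-Hypoxic 1, which also had the fewest reads, and the 4 values were not brought to 1 depth. For Igkv, with 2396 and 18072 reads in the Sugen-Hypoxic pools and 14545 and 9716 in the Normoxic pools, it was 35.6 and 35.5 in the Sugen-Hypoxic pools and 43.7 and 43.8 in the Normoxic pools. The 95% Wilson intervals of the shares cover counting error only, since many reads can come from 1 cell.

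Each pool had its own leading heavy chain V gene. In Sugen-Hypoxic 1 it was Ighv6-3 with 14.2% of Ighv reads (interval 12.6 to 15.9%), in Sugen-Hypoxic 2 it was Ighv11-2 with 12.6% (12.1 to 13.2%), in Normoxic 1 it was Ighv1-53 with 13.0% (12.3 to 13.8%) and in Normoxic 2 it was Ighv5-6 with 10.8% (9.95 to 11.7%). The leading kappa gene was Igkv19-93 with 13.5% of Igkv reads in Sugen-Hypoxic 1, Igkv14-126 with 17.8% in Sugen-Hypoxic 2, Igkv3-2 with 7.78% in Normoxic 1 and Igkv1-110 with 11.1% in Normoxic 2. The first place was close in Normoxic 1, where Igkv3-5 held 7.73%, and in Normoxic 2, where Ighv1-9 held 10.4% of Ighv reads, with overlapping intervals. The 4 libraries had 4 different leaders at both loci, with the order of these pairs unsettled. The share of Ighv usage held in common was 57.7% between the Sugen-Hypoxic pools, 54.7% between the Normoxic pools and 47.7 to 54.5% across groups. For Igkv it was 60.7% between the Sugen-Hypoxic pools, 64.3% between the Normoxic pools and 58.7 to 68.1% across groups. For Igkv the usage shared within a group thus lay within the range across groups. For Ighv both values lay above that range, by a small margin between the Normoxic pools.

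Ighv11-2 (ENSMUSG00000096108, chromosome 12, 114048241 to 114048812, minus strand) and Igkv14-126 (ENSMUSG00000094345, chromosome 6, 67896172 to 67896642, plus strand) were the leaders of Sugen-Hypoxic 2, and their 3′ ends head the heavy and kappa sequences printed above. In mice these V genes are known to recur together in antibodies of B-1 cells that bind phosphatidylcholine. Whether the reads came from such cells was not tested. Ighv11-2 had 102 and 1599 reads in Sugen-Hypoxic 1 and 2, against 78 and 30 in Normoxic 1 and 2, which is 1.78 and 24.5 CPM in the Sugen-Hypoxic pools, against 1.16 and 0.515 CPM in the Normoxic pools. Both treated pools were above both Normoxic pools, by a small margin in the first. The log2 fold change was 4.01 ± 1.22 (adjusted p = 0.0928) in edgeR's test, and it was 1.15 without Sugen-Hypoxic 2 (adjusted p = 0.0592) and 4.89 without Sugen-Hypoxic 1 (adjusted p = 7.43e-10).

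Igkv14-126 had 218 and 3217 reads in the Sugen-Hypoxic pools, against 184 and 95 in the Normoxic pools, which is 3.80 and 49.2 CPM in the Sugen-Hypoxic pools, against 2.74 and 1.63 CPM in the Normoxic pools. The order of the libraries was that of Ighv11-2. The log2 fold change was 3.65 ± 1.14 (adjusted p = 0.0985) in edgeR's test, with 0.88 without Sugen-Hypoxic 2 (adjusted p = 0.0358) and 4.53 without Sugen-Hypoxic 1 (adjusted p = 4.01e-11). As shares, which do not depend on how much antibody transcript a pool held in all, Ighv11-2 took 5.85 and 12.6% of Ighv reads in the Sugen-Hypoxic pools, against 0.975 and 0.605% in the Normoxic pools. Igkv14-126 took 9.10 and 17.8% of Igkv reads in the Sugen-Hypoxic pools, against 1.27 and 0.978% in the Normoxic pools. Both genes were named as leaders of Sugen-Hypoxic 2, so their high share there is given by that choice. Over all V genes with a read, both treated shares were above both Normoxic shares in 8 of 112 Ighv genes (7.14%) and 14 of 111 Igkv genes (12.6%), and below both in 21 (18.8%) and 16 (14.4%).

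Ighv6-3 (chromosome 12, 114391712 to 114392169, minus strand) was named as the leader of Sugen-Hypoxic 1, so its high share there is given by that choice. It was at 4.31 and 14.3 CPM in the Sugen-Hypoxic pools, against 3.83 and 1.17 CPM in the Normoxic pools. Sugen-Hypoxic 1 was thus above Normoxic 1 by a small margin. The log2 fold change was 1.95 ± 0.73 (adjusted p = 0.144) in edgeR's test. It held 14.2 and 7.37% of Ighv reads in the Sugen-Hypoxic pools and 3.21 and 1.37% in the Normoxic pools. Ighv4-1, chosen after its values were seen, held 12.7 and 0.900% in the Sugen-Hypoxic pools and 0.175 and 2.46% in the Normoxic pools, so it was high in 1 treated pool only.

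Other leading V genes were high in 1 Normoxic pool. Ighv1-53 and Ighv5-6 were named as the leaders of Normoxic 1 and Normoxic 2, so their high shares there are given by that choice. Ighv1-53 was at 0.785 and 4.30 CPM in the Sugen-Hypoxic pools, against 15.5 and 2.90 CPM in the Normoxic pools (-1.80 ± 0.98, adjusted p = 0.281 in edgeR's test). Its log2 value was -0.11 without Normoxic 1 and 1.10 with the male fraction as a covariate. Ighv5-6 was at 0.157 and 1.12 CPM in the Sugen-Hypoxic pools, against 0.775 and 9.19 CPM in the Normoxic pools (-2.87 ± 1.28, adjusted p = 0.201), and its log2 value was -0.22 without Normoxic 2. Ighv1-9 was at 0.733 and 4.90 CPM in the Sugen-Hypoxic pools, against 1.89 and 8.88 CPM in the Normoxic pools (-0.86 ± 0.98, adjusted p = 0.606). In these 3 genes a single Normoxic pool held the highest level. In Ighv3-6 and Ighv1-26, as in Ighm, Sugen-Hypoxic 1 was the lowest and Sugen-Hypoxic 2 the highest library. Ighv3-6 was at 0.837 and 11.8 CPM in the Sugen-Hypoxic pools and 2.28 and 2.52 CPM in the Normoxic pools. Ighv1-26 was at 0.837 and 7.82 CPM in the Sugen-Hypoxic pools and 3.55 and 3.98 CPM in the Normoxic pools. Adjusted p was 0.390 for Ighv3-6 and 0.868 for Ighv1-26 in edgeR's test.

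Among kappa V genes, Igkv19-93 was at 5.65 and 3.92 CPM in the Sugen-Hypoxic pools, against 4.27 and 15.8 CPM in the Normoxic pools (-0.99 ± 0.58, adjusted p = 0.314 in edgeR's test). Sugen-Hypoxic 1 was not low here, although it was the lowest library in the kappa total. Igkv19-93 was the leader of that pool, as Igkv3-2 was of Normoxic 1 and Igkv1-110 of Normoxic 2. Their levels in these pools are thus partly given by that choice. Igkv3-2 was at 0.576 and 10.3 CPM in the Sugen-Hypoxic pools, against 16.8 and 3.28 CPM in the Normoxic pools (-0.82 ± 1.22, adjusted p = 0.695), with a log2 value of 1.99 under the male fraction covariate. Igkv1-110 was at 2.77 and 15.7 CPM in the Sugen-Hypoxic pools, against 14.7 and 18.6 CPM in the Normoxic pools (-0.78 ± 0.69, adjusted p = 0.496). Igkv1-117 and Igkv1-135 again had Sugen-Hypoxic 1 lowest and Sugen-Hypoxic 2 highest, at 1.74 and 12.7 CPM in the Sugen-Hypoxic pools against 8.53 and 6.51 CPM in the Normoxic pools for Igkv1-117 and 2.06 and 10.5 CPM in the Sugen-Hypoxic pools against 5.08 and 5.65 CPM in the Normoxic pools for Igkv1-135. Their log2 fold changes were 0.01 for Igkv1-117, which had a negative sign with upper-quartile scaling (-0.042), library sizes alone (-0.051), a mean CPM filter (-0.0013) and limma-voom (-0.51), and 0.29 for Igkv1-135.

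**Figure D4:**
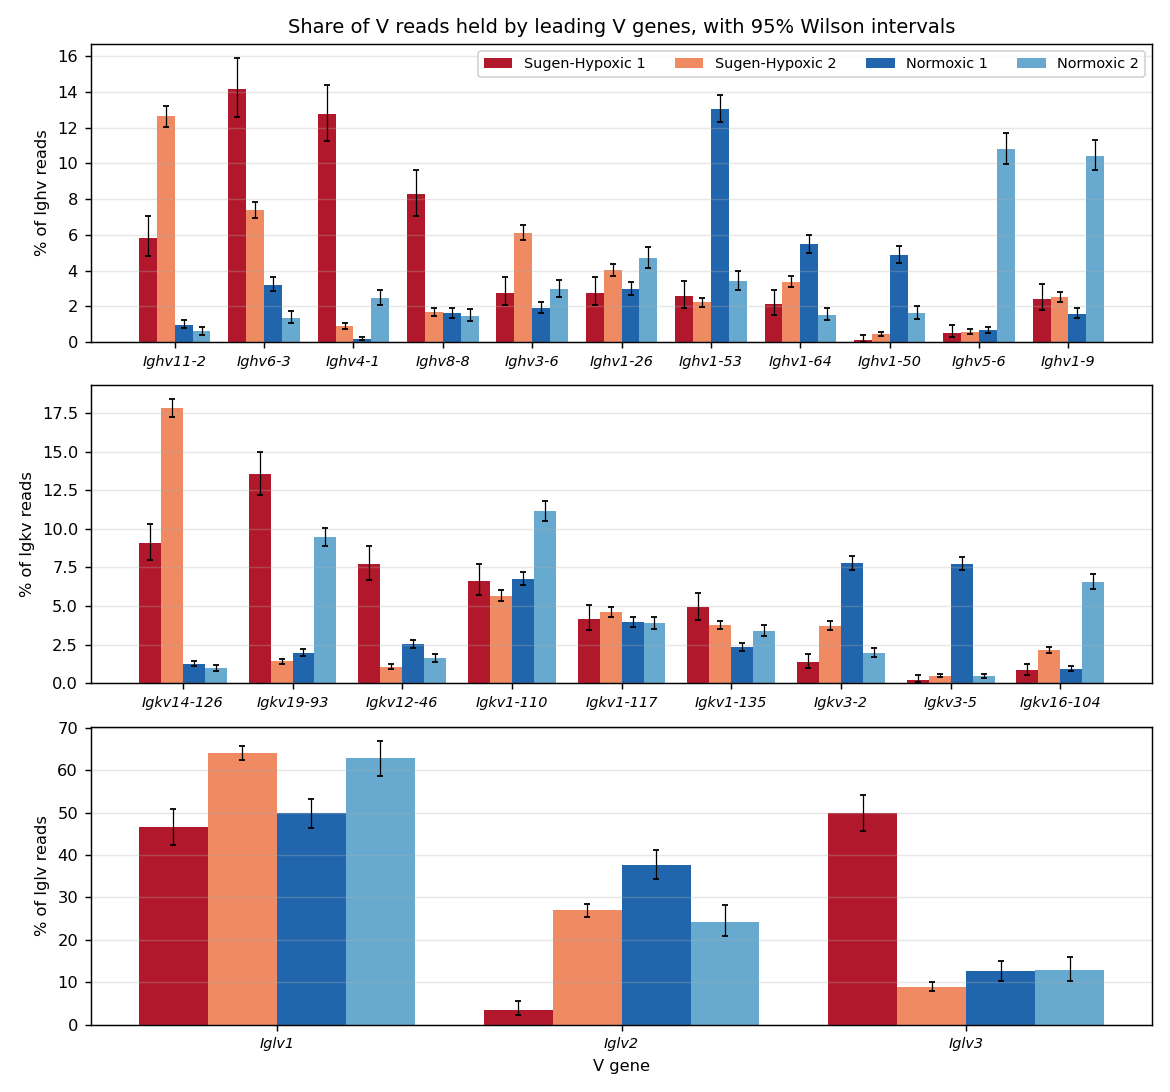
Bars give the share of Ighv, Igkv and Iglv reads (%, one panel per locus) held by leading V genes in each of the 4 pooled libraries, with 95% Wilson intervals that cover counting error only. Ighv11-2 and Igkv14-126 stand at 12.6% and 17.8% in Sugen-Hypoxic 2, Ighv1-53 at 13.0% in Normoxic 1 and Ighv5-6 at 10.8% in Normoxic 2. The Ighv and Igkv leaders differ between pools. Intervals overlap for Ighv5-6 and Ighv1-9 in Normoxic 2 and for Igkv3-2 and Igkv3-5 in Normoxic 1. Iglv1 leads the Iglv reads in Sugen-Hypoxic 2 and in both Normoxic pools.

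Summed by V family, which groups segments by sequence likeness, the large Ighv1 family of 93 entries held 31.8 and 39.0% of Ighv reads in the Sugen-Hypoxic pools, against 64.3 and 55.1% in the Normoxic pools. Ighv6 held 14.6 and 11.4% in the Sugen-Hypoxic pools, against 4.31 and 2.06% in the Normoxic pools. Igkv14 held 12.1 and 20.2% of Igkv reads in the Sugen-Hypoxic pools, against 5.86 and 3.38% in the Normoxic pools. Igkv3 held 3.92 and 6.88% in the Sugen-Hypoxic pools, against 17.6 and 7.69% in the Normoxic pools. These 4 families were chosen after their shares were seen. Over all families with a read, both treated shares were above both Normoxic shares in 2 of 15 Ighv and 4 of 20 Igkv families and below both in 2 and 3. Shares within a locus add up to 100%, so a family that takes more leaves less for the others.

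The V genes that passed the test had low levels. Iglv3 (ENSMUSG00000076939, chromosome 16, 19241207 to 19241690, minus strand), a lambda V segment, was at 4.62 and 4.25 CPM in Sugen-Hypoxic 1 and 2, against 1.46 and 1.15 CPM in Normoxic 1 and 2. Both treated pools were above both Normoxic pools and close to each other, unlike the other lambda V genes. Iglv3 rose by a log2 fold change of 1.83 ± 0.23 (means 4.44 ± 0.261 CPM in the Sugen-Hypoxic libraries and 1.31 ± 0.218 CPM in the Normoxic libraries, SD, n = 2 each), with adjusted p = 0.0108 in edgeR's test. The call was lost without Normoxic 1 (adjusted p = 0.0908), without Normoxic 2 (0.104) and with the male fraction as a covariate (0.364). With unstranded counts the log2 value was 1.03 (adjusted p = 0.0207), so its size rests on the choice of strand. It held 49.9 and 8.94% of Iglv reads in the Sugen-Hypoxic pools and 12.5 and 12.8% in the Normoxic pools, so by share only Sugen-Hypoxic 1 was above the Normoxic pools.

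Iglv1 was at 4.31 and 30.5 CPM in the Sugen-Hypoxic pools, against 5.79 and 5.65 CPM in the Normoxic pools (1.67 ± 0.81, adjusted p = 0.232 in edgeR's test). Iglv2 was at 0.331 and 12.8 CPM in the Sugen-Hypoxic pools, against 4.38 and 2.18 CPM in the Normoxic pools (1.06 ± 1.28, adjusted p = 0.628), and its direction turned to -0.36 with limma-voom. In both, Sugen-Hypoxic 2 was the highest library and Sugen-Hypoxic 1 the lowest. Since the Iglv1 and Iglv2 segments are 97.1% identical, the split of reads between them is uncertain.

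Igkv4-70 (ENSMUSG00000076547, chromosome 6, 69267888 to 69268443, minus strand) had the largest fold change of the 7 called genes. It was at 0.279 and 0.352 CPM in the Sugen-Hypoxic pools, against 5.56 and 3.97 CPM in the Normoxic pools, and it fell 14.3-fold, or by -3.84 ± 0.31 on the log2 scale (SE, adjusted p = 0.00496 in edgeR's test). Its groups were well apart, but 63.9% of its windows occur in other genes, so its level is uncertain. The call held without Normoxic 2 (adjusted p = 0.0356) and was lost without Normoxic 1 (0.0643) and with the male fraction as a covariate (0.260).

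Ighv1-5 was at 0.174 and 0.153 CPM in the Sugen-Hypoxic pools, against 1.53 and 0.962 CPM in the Normoxic pools, a log2 value of -2.85 ± 0.43 (adjusted p = 0.0179 in edgeR's test). It rests on 10 and 10 reads in the Sugen-Hypoxic pools and 103 and 56 in the Normoxic pools. The filter's cutoff of 0.162 CPM was reached in both Normoxic libraries and, by a small margin, in Sugen-Hypoxic 1. Entry through both libraries of the Normoxic group alone favours genes that are higher there, so its call is a description. Igkv6-17 was at 0.680 and 0.857 CPM in the Sugen-Hypoxic pools, against 4.45 and 2.23 CPM in the Normoxic pools, and fell by -2.05 ± 0.40 (adjusted p = 0.0331). Igkv6-23 was at 1.17 and 1.67 CPM in the Sugen-Hypoxic pools, against 3.44 and 3.16 CPM in the Normoxic pools, and fell by -1.15 ± 0.25 (adjusted p = 0.0451). The calls of these 3 genes were lost without Normoxic 1 and without Normoxic 2 (adjusted p = 0.0713 to 0.280) and with the male fraction as a covariate, and that of Igkv6-17 also with limma-voom (adjusted p = 0.0627).

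Genes that mark the cells in which immunoglobulin genes are active give the setting of these values. All 10 B cell markers fell, against 6.01% of all genes tested that were called lower. They summed to 128 and 162 CPM in Sugen-Hypoxic 1 and 2, against 378 and 355 CPM in Normoxic 1 and 2, with a median log2 fold change of -1.28 beside -0.0039 over all genes. Pax5, the transcription factor that maintains B cell identity, was at 15.5 and 18.8 CPM in the Sugen-Hypoxic pools, against 56.5 and 51.4 CPM in the Normoxic pools (-1.59 ± 0.11, adjusted p = 0.00406 in edgeR's test). Cd79a, a signalling chain of the B cell receptor, fell by -1.43 ± 0.12 and Ms4a1, which codes for CD20, by -1.34 ± 0.21. Ms4a1 was at 13.5 and 21.1 CPM in the Sugen-Hypoxic pools, against 50.02 and 42.0 CPM in the Normoxic pools, so the treated pools differed in it, though less than in Ighm. The part of B cell marker levels in the values of immunoglobulin genes was not tested.

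The 10 falls were 0 without Normoxic 1, 4 without Normoxic 2 and 0 with the male fraction as a covariate. In these fits few genes were called anywhere, with 0.0410% of all genes lower without Normoxic 1, 0.296% lower without Normoxic 2 and 11 genes in all with the covariate. The size of the change moved little, with median log2 values from -1.38 to -1.15 over these fits and those without a treated pool. The counts of the other lists likewise stand beside 5.51% higher and 6.01% lower over all genes, and their losses without a Normoxic pool or with the covariate beside the same low background. The lists overlap, so their counts are not separate. Pax5, Fcer2a and Cr2 of the B cell markers also count among the transcription factors, antibody receptors and complement genes, in that order. Pou2af1 counts among both the plasma cell markers and the transcription factors.

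Taken as a list, plasma cell markers moved less. Of 10, 2 fell and 8 did not pass, with a median log2 fold change of -0.44, and they summed to 614 and 689 CPM in the Sugen-Hypoxic pools against 716 and 719 CPM in the Normoxic pools. The 2 were Prdm1, the factor that drives plasma cell formation (14.0 and 12.7 CPM in the Sugen-Hypoxic pools against 19.1 and 19.9 CPM in the Normoxic pools, adjusted p = 0.0341 in edgeR's test), and Pou2af1, a coactivator in B cells (10.7 and 16.4 CPM in the Sugen-Hypoxic pools against 27.8 and 25.7 CPM in the Normoxic pools, adjusted p = 0.0385). Mzb1, a chaperone of antibody-secreting cells, was at 1.97 and 5.80 CPM in the Sugen-Hypoxic pools, against 7.75 and 5.63 CPM in the Normoxic pools (-0.72 ± 0.48, adjusted p = 0.369). Sugen-Hypoxic 1 was the lowest library for Mzb1, as it was for Jchain, while Sugen-Hypoxic 2 was not above the Normoxic pools. Sdc1 and Xbp1, which lung epithelium also expresses, were at 231 and 253 CPM and at 194 and 200 CPM in the Sugen-Hypoxic pools, against 233 and 253 CPM and 214 and 204 CPM in the Normoxic pools. Both genes weigh heavily in the sum of the list. Irf4 was at 6.02 and 10.8 CPM in the Sugen-Hypoxic pools, against 13.1 and 10.3 CPM in the Normoxic pools. Tnfrsf17, a survival receptor of plasma cells, was under 1 CPM in every library. Over the mean log2 level of the Normoxic libraries it was at -2.60 in Sugen-Hypoxic 1 and -1.23 in Sugen-Hypoxic 2. These values were -1.24 and -0.030 for Derl3, -0.64 and -0.17 for Fkbp11 and -0.26 and -0.016 for Txndc5. Without Sugen-Hypoxic 2, 6 of the 10 passed as lower, while 0 passed without Normoxic 1, without Normoxic 2 or with the male fraction as a covariate.

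**Figure D5:**
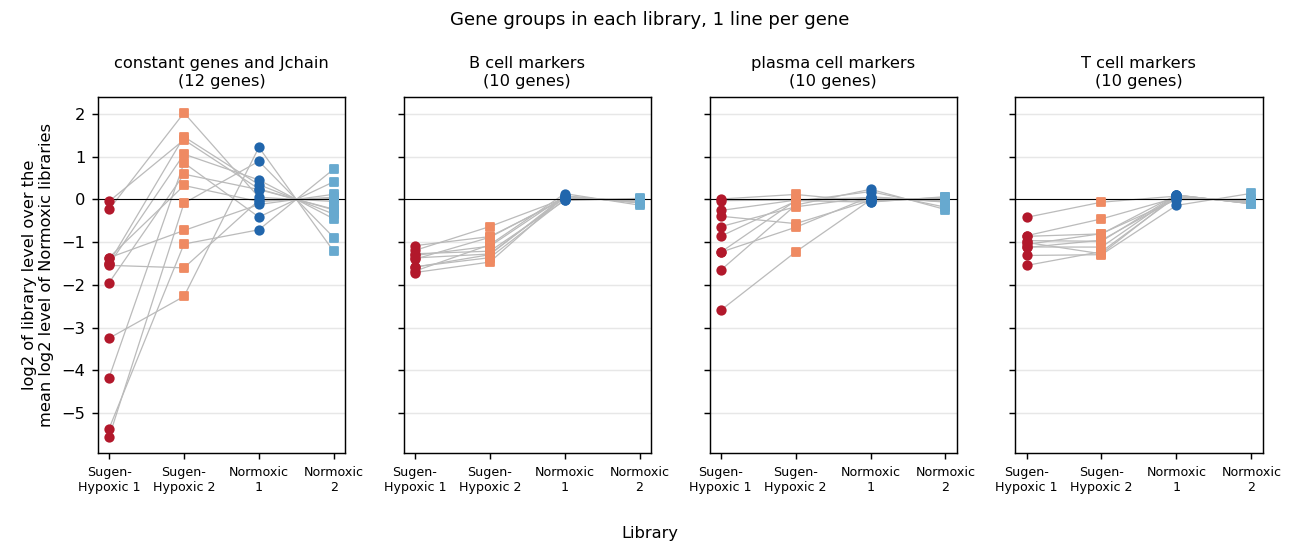
Each line is a gene and each point its log2 level in a pooled library over the mean log2 level of the Normoxic libraries, for the constant genes tested and Jchain (12 genes), 10 B cell markers, 10 plasma cell markers and 10 T cell markers. All 10 B cell markers lie below the Normoxic pools in both treated pools, while most constant genes lie far apart between Sugen-Hypoxic 1 and 2.

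T cell markers, of the other lymphocyte lineage, were lower in both treated pools as well. They summed to 48.2 and 57.2 CPM in the Sugen-Hypoxic pools, against 96.6 and 90.6 CPM in the Normoxic pools, and 8 of 10 fell, with a median log2 fold change of -1.01. Lck, a kinase of T cell receptor signalling, was at 5.98 and 6.09 CPM in the Sugen-Hypoxic pools, against 14.6 and 12.9 CPM in the Normoxic pools (-1.12 ± 0.12, adjusted p = 0.00780 in edgeR's test). None of the 10 passed without Normoxic 1, without Normoxic 2 or with the male fraction as a covariate, where the median log2 values were -0.97, -1.07 and -0.92.

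Of 14 transcription factors of immunoglobulin genes, 7 fell and 0 rose. Pou2f2, the octamer-binding factor Oct-2, was at 14.5 and 18.0 CPM in the Sugen-Hypoxic pools, against 43.5 and 39.4 CPM in the Normoxic pools (-1.29 ± 0.12, adjusted p = 0.00607 in edgeR's test), and Spib fell by -1.07 ± 0.20. Of 18 genes of B cell receptor signalling 5 fell and 0 rose, among them Fcrl1 (-1.68 ± 0.21), Fcrla (-1.42 ± 0.11) and Siglecg (-1.38 ± 0.14), an inhibitory lectin of B cells. Without Normoxic 1 or with the male fraction as a covariate no member of either list passed, and without Normoxic 2 the falls were 2 among the transcription factors and 0 among the signalling genes. The surrogate light chain and progenitor list had 1 fall among 6 tested of 8, in Vpreb3 (-1.14 ± 0.11), which mature B cells also express.

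Genes of recombination, class switching and the germinal centre mostly did not pass the test. Of 18 in the list 13 were high enough to be tested, and 1 rose, the death receptor Fas (0.43 ± 0.08). Rag1, a recombinase of V segments, was at 0.0349 and 0.0306 CPM in the Sugen-Hypoxic pools and 0.0894 and 0.137 CPM in the Normoxic pools, and was not tested. Of 21 genes of the secretory programme, which other lung cells share, 1 rose, the chaperone gene Dnajb11 (0.30 ± 0.07, adjusted p = 0.0435 in edgeR's test), and the median was 0.11. With upper-quartile factors or library sizes alone 0 of the 21 rose and 1 fell.

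Receptors and carriers of antibody were mixed. Of 12, 3 fell and 0 rose. Fcmr, the IgM receptor, was at 11.5 and 11.0 CPM in the Sugen-Hypoxic pools, against 34.5 and 31.2 CPM in the Normoxic pools (-1.48 ± 0.09, adjusted p = 0.00357 in edgeR's test). Fcer2a, the low-affinity IgE receptor of B cells, fell by -0.97 ± 0.10, and Fcer1a, of the high-affinity IgE receptor, fell by -2.24 ± 0.47 at levels under 1 CPM. Without Normoxic 1 or with the male fraction as a covariate 0 of the 12 passed, and without Normoxic 2 there was 1 fall. Pigr, which carries polymeric IgA and IgM across epithelium, was at 44.1 and 118 CPM in the Sugen-Hypoxic pools, against 80.6 and 70.2 CPM in the Normoxic pools (0.17 ± 0.42, adjusted p = 0.824). For Pigr, as for Ighm and Jchain, Sugen-Hypoxic 1 was the lowest and Sugen-Hypoxic 2 the highest library. Fcgrt, the neonatal receptor that recycles IgG, was at 88.0 and 79.0 CPM in the Sugen-Hypoxic pools, against 85.8 and 87.5 CPM in the Normoxic pools (0.02 ± 0.08, adjusted p = 0.911).

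Of 26 factors of the niche of B and plasma cells 20 were tested, 2 rose and 6 fell. Cxcl12, a chemokine that holds plasma cells and their precursors in place, was at 1202 and 947 CPM in the Sugen-Hypoxic pools, against 312 and 378 CPM in the Normoxic pools (1.71 ± 0.16, adjusted p = 0.00606 in edgeR's test). Ltbr, the receptor for lymphotoxin beta, was at 108 and 112 CPM in the Sugen-Hypoxic pools, against 89.4 and 92.3 CPM in the Normoxic pools, and rose by 0.34 ± 0.05 on the log2 scale. The falls included several receptors. Cxcr5, the receptor that guides B cells to follicles, fell by -1.49 ± 0.14, Ccr7 by -1.19 ± 0.12, and Tnfrsf13c, the receptor for the B cell survival factor BAFF, by -1.13 ± 0.23. Tnfsf13b, the gene of BAFF itself, was at 35.9 and 37.6 CPM in the Sugen-Hypoxic pools, against 41.6 and 39.0 CPM in the Normoxic pools (-0.06 ± 0.07, adjusted p = 0.570). Of the niche list 0 passed without Normoxic 1 or with the male fraction as a covariate, and 1 fell without Normoxic 2. Among 12 genes of complement C1 and of receptors for antibody complexes, 2 rose and 1 fell, the last being the complement receptor Cr2 of B cells (-1.47 ± 0.12). With upper-quartile factors or library sizes alone 0 of these 12 rose. Without Normoxic 1, without Normoxic 2 or with the male fraction as a covariate, 0 genes passed on the complement, secretory, recombination and progenitor lists. Without Sugen-Hypoxic 1, 12 of 21 secretory and 8 of 12 complement genes were called higher (13.4% of all genes), and without Sugen-Hypoxic 2 it was 5 and 7 (11.9% of all genes).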

How the data were processed

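Raw counts of reads per gene were deposited for 4 pooled libraries, made by the authors with STAR 2.5.1b on GRCm38.p4 and with HTSeq, per the submitters' processing notes. The annotation is not given in the sources used here, nor is strandedness. Counts in column 4 were 20.9 to 24.9 times those of the opposite strand and were used, with unstranded counts as an alternative. Rows for unmapped (6.45 to 7.55%), multimapping (4.50 to 4.54%), no-feature (7.73 to 9.98%) and ambiguous reads (1.10 to 1.13%) stayed out of library sizes. Names and coordinates came from GENCODE mouse release 21, which matched 47224 of 47729 identifiers, and Ighv1-13 and Ighv5-8 each named more than 1 identifier.

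The 18783 genes kept by filterByExpr entered edgeR's quasi-likelihood test (edgeR 4.0.16, limma 3.58.1, R 4.3.3) with TMM factors, group as the only term and Benjamini-Hochberg adjustment at 0.05. Log2 fold changes are Sugen-Hypoxic over Normoxic, with SE from the F statistic, and tests were two-sided. Alternatives were DESeq2 1.42.0, limma-voom, other scalings and filters, the male fraction as a covariate and leaving out each library.

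Genes and 14 gene lists were chosen with earlier results of these data known. Named were all constant genes and Jchain, the 6 V genes per locus with the highest mean CPM (3 for Iglv), the leader of each locus in each library, and called V genes averaging 0.5 CPM or more. List genes were named where called with an absolute log2 fold change of at least 1, together with a set always named. Exceptions are examples added for a role or a count. Single values of some list genes are not reported here.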

Additional observations from a re-analysis of the deposited data

How the results depend on the processing

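Of the 162 immunoglobulin genes tested, 1 was called higher and 6 lower, and these counts were the same with RLE and upper-quartile factors, library sizes alone, a mean CPM filter, unstranded counts and library sizes without immunoglobulin and haemoglobin genes. With limma-voom they were 1 and 5. They were 11 and 25 with no filter, 3 and 13 with DESeq2, and 0 and 0 with the male fraction as a covariate. With 1 library left out they ran from 0 to 56 higher and from 1 to 107 lower. The falls among B cell markers ran from 0 to 10, among plasma cell markers from 0 to 6 and among T cell markers from 0 to 10 with 1 library left out, and were 0, 0 and 0 with the male fraction. The log2 ratio of summed levels ran from -1.83 to 0.68. The following log2 fold changes changed sign, and the cause was not tested. With limma-voom the values were -0.24 for Ighm, -0.37 for Ighv1-26, -0.51 for Igkv1-117, -0.055 for Igkv1-135 and -0.36 for Iglv2. With the male fraction as a covariate they were 0.74 for Ighg3, 0.28 for Igkc, 1.10 for Ighv1-53, 1.99 for Igkv3-2, -0.037 for Sdc1, 0.066 for Xbp1 and 0.046 for Tnfsf13b. Igkv1-117 was at -0.042 with upper-quartile factors, -0.051 with library sizes alone and -0.0013 with the mean CPM filter. Fcgrt was at -0.035 with upper-quartile factors and -0.053 with library sizes alone, where Sdc1 was at -0.0057. With 1 library left out, values ran from -1.59 to 0.99 for Ighm, -4.23 to 0.80 for Ighg2b, -1.52 to 1.43 for Jchain, -1.97 to 0.57 for Igkc, -0.24 to 2.03 for Iglc1, -0.066 to 1.37 for Iglc2 and -1.36 to 0.33 for Iglc3. They ran from -1.43 to 2.36 for Ighv3-6, -2.78 to 0.63 for Ighv1-9, -2.08 to 1.11 for Ighv1-26, -4.05 to 0.81 for Igkv3-2, -1.64 to 0.22 for Igkv19-93, -2.02 to 0.81 for Igkv1-117 and -1.30 to 1.02 for Igkv1-135. They ran from -0.32 to 2.47 for Iglv1, -3.22 to 2.01 for Iglv2, -0.067 to 0.030 for Xbp1, -0.69 to 0.70 for Pigr and -0.078 to 0.11 for Fcgrt. No paired analysis was possible because the pools hold different mice and their numbers only follow the order of the records. Depth limits the V genes with few reads, and pooling hides the spread between animals.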
